A study of Homo sapiens with 4 samples.

Results

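The A20, TNIP, TRAF and cIAP regulators are 10 genes whose proteins attach, read or remove ubiquitin on the way to NF-kB: TNFAIP3, TNIP1, TNIP2, TNIP3, CYLD, BIRC2, BIRC3, TRAF1, TRAF2 and TRAF3. They were chosen by name, with earlier results of these data known, and all 10 were listed among the 24424 gene symbols of the table. RNA was sequenced from BEAS-2B, an established and immortalized line of human bronchial epithelial cells that the labels give as wild type, in 4 libraries. Control cells had no treatment, LPS cells had lipopolysaccharide (the outer membrane component of gram-negative bacteria) for 2 hr, and the cells named WT PDZ+LPS or mut PDZ+LPS had a peptide for 24 hr before the same 2 hr of LPS. The WT PDZ peptide copies a stretch of the first PDZ domain of the tight junction protein ZO-1 and carries a TAT sequence for entry into cells, and in the mut PDZ peptide a pair of glycines was replaced by alanines. Cells with peptide but no LPS were not analysed here, so each peptide library differs from Control by peptide and LPS together. Each condition had 1 library, so the differences below lack any replicate check and carry no p-values. Intervals (95%) reflect counting error alone and compare libraries rather than conditions, and counted reads without molecular identifiers may include copies of the same molecule.

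The libraries held 19682929 to 25155647 counts, with the lowest total in mut PDZ+LPS. The keratin transcripts KRT7, KRT8 and KRT18 were the highest of the 7 epithelial markers examined, and none of the 7 was at 0 in any library. The lowest were EPCAM with 37 to 51 counts and KRT19 with 87 to 216. CDH1 had 605 to 634 counts in the other libraries and 308 in mut PDZ+LPS. These marker counts are neither scaled for depth nor corrected for transcript length. PTPRC, the pan-leukocyte marker, had 0 counts in all 4 libraries. Of the 5 fibroblast markers COL3A1 was at 0 throughout, whereas COL1A1 had 331 to 449 counts and PDGFRB 67 to 129, and the 5 together had 431 to 587 counts. The 3 endothelial markers reached at most 8 counts. CD14 (362 to 507 counts) and CD68 (304 to 358 counts), which mark macrophages but are not limited to them, were counted in every library.

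NF-kB is held inactive in resting cells until receptors such as those for LPS or TNF recruit adaptors and ubiquitin ligases, whose ubiquitin chains serve as the platform on which the activating kinases assemble. TRAF proteins and the cIAP ligases BIRC2 and BIRC3 help to build these platforms, while A20, the product of TNFAIP3, and CYLD take them apart. The TNIP proteins bind both ubiquitin and A20. Several of these genes are themselves known targets of NF-kB, which closes a feedback loop.

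The stretches of sequence upstream of these genes that match the 10-base NF-kB consensus are shown first, since only some members have one and NF-kB is the pathway these genes regulate. In the RefSeq promoter windows, which run from 250 bases before to 50 after each annotated start in GRCh38.p14, all 10 members had at least 1 window (18 in all). The consensus was found on either strand in 6 of the 10 members, against 15.5% of the 16160 genes of the table with a window. Counted per window, it was in 8 of the 18 member windows and in 11.3% of all 35116 windows. TNIP2, BIRC2, TRAF1 and TRAF2 had no match in these windows. In the lines that follow, capitals mark the bases that match, each sequence is read 5′ to 3′ on the strand of the gene, and each lies upstream of the annotated start.
TNFAIP3, chr6:137867188-137867217, plus strand: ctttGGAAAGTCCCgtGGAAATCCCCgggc
TNIP1, chr5:151081057-151081086, minus strand: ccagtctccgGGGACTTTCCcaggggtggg
CYLD, chr16:50741887-50741916, plus strand: ttgacagagcGGAAAGTCCCttcggccggc
TRAF3, chr14:102777406-102777435, plus strand: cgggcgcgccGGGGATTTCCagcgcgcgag
TNIP3, first start, chr4:121227526-121227555, minus strand: tcttaaaaaaGGGGTTTCCCtgtgtatggg
TNIP3, last start, chr4:121164363-121164392, minus strand: gagacatcctGGGAAATCCCtatttggaag

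TNFAIP3 held 2 matches within the 30 bases shown, at -67 to -58 and -55 to -46 from its start. The match of TNIP1 lay at -42 to -33 and that of TRAF3 at -33 to -24. CYLD held the match shown, at -189 to -180 from its first start, and a second that began at its last start. The cIAP genes BIRC2 and BIRC3 are neighbours on chromosome 11, and longer stretches of both are set side by side because their fold changes in LPS/Control differed.
BIRC3, chr11:102317234-102317449, plus strand: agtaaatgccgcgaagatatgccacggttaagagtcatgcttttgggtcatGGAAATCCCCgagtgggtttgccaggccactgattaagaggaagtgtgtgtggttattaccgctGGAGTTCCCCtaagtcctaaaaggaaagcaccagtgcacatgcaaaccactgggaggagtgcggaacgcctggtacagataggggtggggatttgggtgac
BIRC2, chr11:102346964-102347210, plus strand: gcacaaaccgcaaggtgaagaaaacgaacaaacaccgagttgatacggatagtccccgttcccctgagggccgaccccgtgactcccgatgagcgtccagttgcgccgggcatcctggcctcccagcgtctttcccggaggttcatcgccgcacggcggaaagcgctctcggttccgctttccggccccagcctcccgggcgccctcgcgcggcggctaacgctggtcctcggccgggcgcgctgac

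BIRC3 held matches at -199 to -190 and -135 to -126, and neither window of BIRC2 held one. Among the other members, matches and calls in LPS/Control, given below, did not always go together. TNFAIP3 and TNIP1 held matches and were called higher, and TNIP2 and TRAF2 had neither a match nor a call. TRAF1 was called higher with no match, while CYLD and TRAF3 held matches and were not called. TNIP3 held matches and had at most 6 counts. A link between matches and fold changes was not tested. The AP-1 motif TGACTCA was in 0 of the 10 members, against 5.53% of the 16160 genes with a window. The GC box GGGCGG was in 8 of the 10 members, against 61.6% of those genes. Counted per window, the GC box was in 11 of the 18 member windows and in 45.0% of all windows. A match is a run of letters and not a measured binding site, and the lack of one says nothing about the factor or about sequence outside the window.

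The first comparison asked how the regulators stood after 2 hr of LPS. In LPS/Control, 4 of the 10 members were called higher and 0 lower: TNFAIP3 20.7-fold, BIRC3 10.6-fold, TNIP1 3.75-fold and TRAF1 2.43-fold. A call needs a difference of at least 2-fold and 16 or more normalized counts (a log2 value of 4) in either library, and 3.46% of the 13277 genes that met this expression rule were called higher. TNIP3 did not meet the rule in any comparison, so counts of calls below refer to the other 9 members. All 9 were above 0 on the log2 scale, with a median log2 fold change of 0.88. Of the 13072 genes whose mean over the libraries reached 16 normalized counts, 6504 were above 0 and 6565 below, with a median of -0.0010. Intervals were not counted over all genes. Of 32 other pathway genes described below, 13 had a 95% counting interval above 0 and 3 below. For the 9 members every interval lay above 0. For TNIP2 and TRAF2 this depended on the scaling: they were at 0.012 and 0.038 under total-count scaling and at 0.056 and 0.082 under upper-quartile scaling, nearer to 0 than their counting error. In these bulk libraries, more responding cells and more RNA per responding cell cannot be told apart.

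TNFAIP3 encodes A20, which removes activating ubiquitin chains from signaling adaptors and adds degradative ones. It had 575 counts in Control against 11022 with LPS alone, 9855 with the WT peptide and 8078 with the mut peptide, or 500.4, 10368, 9951 and 9492 normalized counts in the same order. Control stood far below the other libraries, which lay close together. Against Control, TNFAIP3 differed by 4.37 on the log2 scale with LPS alone (95% interval 4.25 to 4.50), by 4.31 with the WT peptide and by 4.24 with the mut peptide. Per kilobase of its longest coding transcript (4735 nt), TNFAIP3 moved from the 31.9th percentile of 11751 genes in Control to the 94.6th in LPS.

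TNIP1, an adaptor that helps A20 reach its ubiquitinated targets, was the most abundant member throughout. It had 11475 counts in Control against 39858 with LPS alone, 34899 with the WT peptide and 29814 with the mut peptide, which corresponded to 9987, 37494, 35240.4 and 35031 normalized counts. The 3 LPS-treated libraries again lay near each other and above Control, and LPS/Control gave a log2 value of 1.91 (1.88 to 1.94). TNIP1 was already at the 97.3rd percentile per kilobase in Control and at the 99.3rd in LPS.

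TNIP2, an A20-binding adaptor that also stabilizes the kinase MAP3K8, was below the call in all 3 comparisons with Control. Its normalized counts were 914.7 in Control against 1010.3 with LPS alone, 1119 with the WT peptide and 1324 with the mut peptide, from 1051, 1074, 1108 and 1127 counts. In LPS/Control its log2 fold change was 0.14 (0.019 to 0.27), and that of TNIP1 exceeded it by 1.77 (1.64 to 1.89). In mut PDZ+LPS/Control it was 0.53 (0.41 to 0.66) as counted and 0.22 after the length and GC correction. TNIP1 made up 91.6% of the counts of the TNIP genes in Control and 97.4% in LPS (exact binomial 95% intervals 91.1% to 92.1% and 97.2% to 97.5%).

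TNIP3, the remaining A20-binding adaptor, had 0 counts in Control against 2 with LPS alone, 6 with the WT peptide and 2 with the mut peptide. A count of 0 allows up to 3 counts, and against that limit the 6 counts in WT PDZ+LPS, taken as exact, were at least 2.32-fold higher than in Control after scaling. With the counting error of both libraries the lower limit of this difference was 0.45 on the log2 scale. The ratio of WT PDZ+LPS to LPS was 3.22 with a counting interval of 0.576 to 32.6, so a difference was not detectable at this depth. TNIP3 stayed near the detection limit in every library.

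CYLD, a tumor suppressor deubiquitinase that trims ubiquitin chains from TRAF proteins and the kinase scaffold, was below the call in all 3 comparisons with Control. It had 1166 counts in Control against 1930 with LPS alone, 1546 with the WT peptide and 949 with the mut peptide, or 1015, 1816, 1561 and 1115 normalized counts. LPS and WT PDZ+LPS lay above Control, and mut PDZ+LPS lay near it. CYLD differed from Control by 0.84 (0.73 to 0.95) on the log2 scale with LPS alone, by 0.62 with the WT peptide and by 0.14 with the mut peptide. The last value became 0.57 once a length and GC trend, described with the peptide comparisons, was removed. A20 and CYLD act on overlapping substrates, and their share changed: TNFAIP3 supplied 33.0% of the counts of this pair in Control (30.8% to 35.3%) and 85.1% in LPS (84.5% to 85.7%). Shares of counts do not allow for the longer transcript of CYLD. Per kilobase in Control the normalized counts were 106 for TNFAIP3 and 119 for CYLD, with overlapping intervals. On the log2 scale the fold change of TNFAIP3 exceeded that of CYLD by 3.53 (3.37 to 3.69).

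BIRC3 and BIRC2 encode cIAP2 and cIAP1, ubiquitin ligases that act on RIPK1 at the TNF receptor and, with TRAF2 and TRAF3, mark the kinase MAP3K14 for degradation. BIRC3 had 1757 counts in Control against 17189 with LPS alone, 14033 with the WT peptide and 11171 with the mut peptide, or 1529, 16169, 14170.3 and 13126 normalized counts. All 3 LPS-treated libraries were far above Control, and LPS was the highest. BIRC2 had 1322, 1939.7, 1864 and 1687 normalized counts in the same order, from 1519, 2062, 1846 and 1436 counts. Its 3 LPS-treated libraries lay above Control by less than 1.5-fold.

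In LPS/Control, BIRC3 had a log2 fold change of 3.40 (3.33 to 3.47) and BIRC2 one of 0.55 (0.46 to 0.65), a difference of 2.85 (2.73 to 2.97). BIRC3 therefore went from 53.6% of the cIAP counts in Control (51.9% to 55.4%) to 89.3% in LPS (88.8% to 89.7%), and stood at 88.4% with the WT peptide and 88.6% with the mut peptide. These shares do not depend on the scaling between libraries. The ratio within a set shows unequal change and not that the other gene stayed still.

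**Figure D1:**
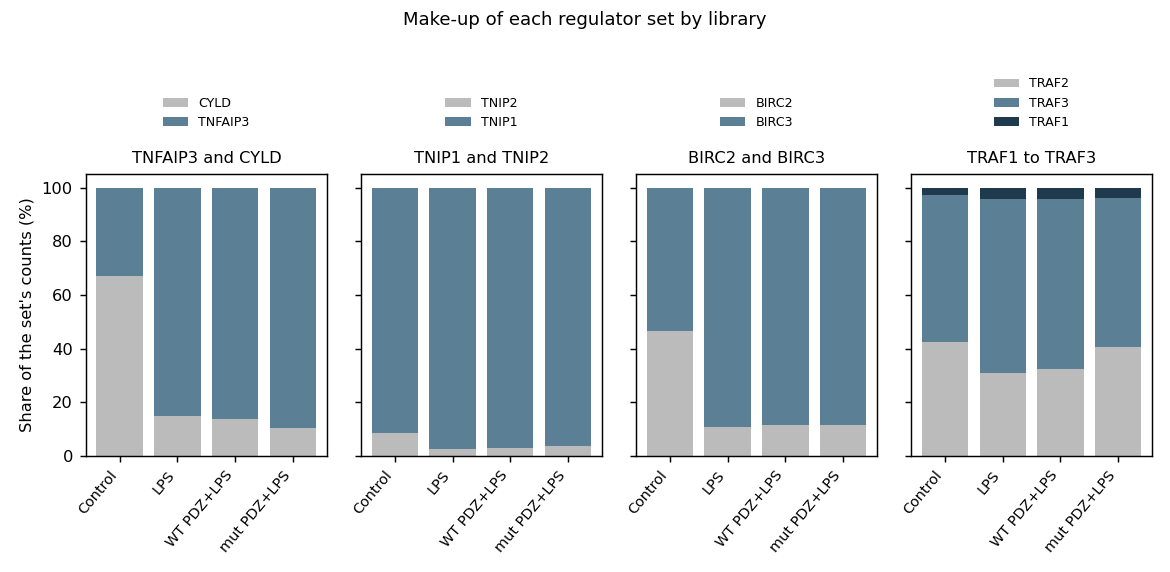
Stacked bars give the share (%) of each gene in the counts of its own set in each of the 4 libraries: TNFAIP3 with CYLD, TNIP1 with TNIP2, BIRC2 with BIRC3, and TRAF1 to TRAF3; TNIP3, with at most 6 counts, is too small to see and has no color. BIRC3 covers 53.6% of its set in Control and 88.4% to 89.3% in the libraries with LPS, and TNFAIP3 goes from 33.0% to between 85.1% and 89.5%. The shares are not corrected for transcript length or GC content. In mut PDZ+LPS/LPS, TNFAIP3 exceeded CYLD by 0.58 on the log2 scale as counted and by 0.35 after that correction.

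TRAF1, TRAF2 and TRAF3 are adaptors that join receptors to ubiquitin ligases. TRAF1 lacks the RING domain of the others and binds the cIAPs together with TRAF2. TRAF1 was scarce, with 66 counts in Control against 150 with LPS alone, 128 with the WT peptide and 96 with the mut peptide, or 57.4, 141, 129 and 113 normalized counts. Control was the lowest, and the intervals of the levels of the other libraries overlapped each other. Its log2 fold change against Control was 1.28 (0.87 to 1.74) with LPS alone and 1.16 (0.73 to 1.62) with the WT peptide. With the mut peptide it was 0.96 (0.51 to 1.45), just short of the call, and it was 1.23 after the length and GC correction.

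TRAF3, which also serves the interferon arm of toll-like receptor signaling, had 1163 normalized counts in Control against 2137 with LPS alone, 1994 with the WT peptide and 1666 with the mut peptide. Its log2 fold change in LPS/Control was 0.88 (0.78 to 0.98), below the call, with 1336 and 2272 counts behind it. TRAF2, the partner through which the cIAPs join the TNF receptor, had 902.5 normalized counts in Control against 1015 with LPS alone, 1009.8 with the WT peptide and 1223 with the mut peptide. The value for TRAF2 in LPS/Control was 0.17 (0.045 to 0.29), from 1037 and 1079 counts.

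The fold change of TRAF1 in LPS/Control exceeded that of TRAF2 by 1.11 on the log2 scale (0.68 to 1.55). It was not separated from that of TRAF3 by counting error, with a difference of 0.40 (-0.025 to 0.83). TRAF3 made up 54.8% of the counts of TRAF1 to TRAF3 in Control and 64.9% in LPS, while TRAF2 went from 42.5% to 30.8% and TRAF1 from 2.71% to 4.28%.

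**Figure D2:**
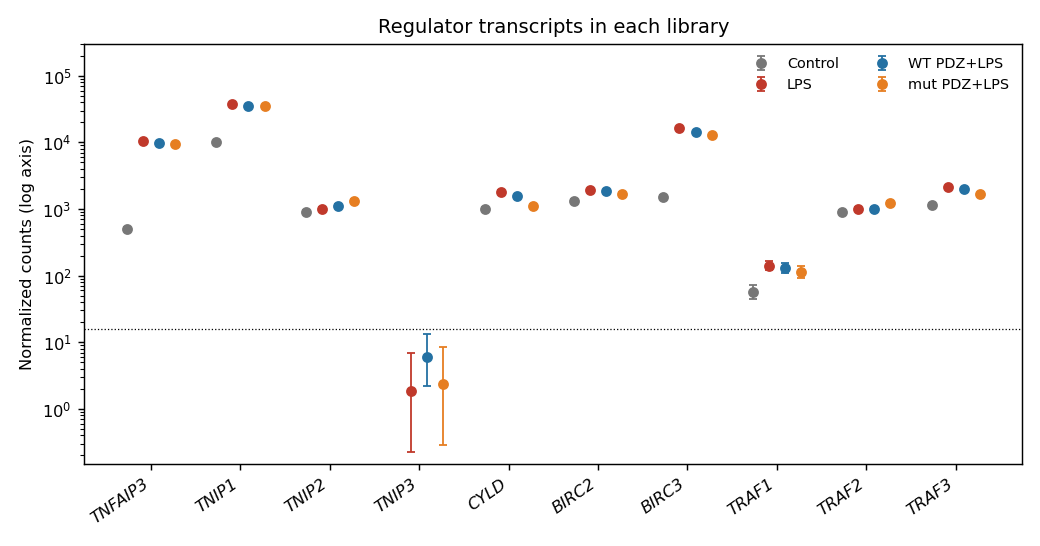
Normalized counts (log axis) of the 10 regulators in the 4 libraries, 1 point per library with its exact 95% counting interval; the dotted line is at 16 normalized counts, and TNIP3 in Control had 0 counts and has no point. TNFAIP3, TNIP1 and BIRC3 stand well above Control in the 3 libraries with LPS, and TNIP3 lies below the line everywhere.

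Compared per kilobase of the longest coding transcript, the order of the members differed between Control and LPS. In Control, TNIP1 led with 3403 normalized counts per kilobase, followed by TNIP2 with 456, TRAF2 with 399, BIRC2 with 325 and BIRC3 with 294. TRAF3 (151), CYLD (119), TNFAIP3 (106) and TRAF1 (9.08) came next, and the intervals of CYLD and TNFAIP3 overlapped. TNFAIP3 was thus the eighth of 10 before LPS.

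In LPS, the order was TNIP1 with 12775 normalized counts per kilobase, BIRC3 with 3111, TNFAIP3 with 2189.7, TNIP2 with 504, BIRC2 with 477 and TRAF2 with 448. TRAF3 (278), CYLD (214) and TRAF1 (22.3) followed. The intervals of TNIP2 and BIRC2, and those of BIRC2 and TRAF2, overlapped, so these neighbours did not differ beyond counting error. WT PDZ+LPS had the same order as LPS, and in mut PDZ+LPS TRAF2 (540) lay above BIRC2 (415). In mut PDZ+LPS/LPS the log2 values of TRAF2 and BIRC2 were 0.27 and -0.20 as counted. After the length and GC correction, described with the peptide comparisons, they were -0.021 and -0.018. Per kilobase of the median coding transcript TNFAIP3 came before BIRC3 in the 3 libraries with LPS, TNIP2 moved from rank 2 to rank 5 in Control, and TNIP1 stayed first in all 4. By that measure TRAF2 lay above BIRC2 in all 4, so the order of this pair depended on the length used.

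The libraries with peptide and LPS were then set beside the same Control. In WT PDZ+LPS/Control, 4 members were called higher, TNFAIP3, TNIP1, BIRC3 and TRAF1, against 3.28% of the 13284 genes that met the rule. In mut PDZ+LPS/Control, 3 were called higher, TNFAIP3, TNIP1 and BIRC3, against 5.13% of 13434 genes. None was called lower in either. The median of the 9 members was 0.78 and 0.53 on the log2 scale, against 0.010 and -0.018 over all genes. After the length and GC correction the medians of the members were 0.73 and 0.85, so the order of the peptide libraries depended on it. BIRC3 stood at 3.21 (3.14 to 3.28) and 3.10 (3.03 to 3.18), and TNIP1 at 1.82 (1.79 to 1.85) and 1.81 (1.78 to 1.84). These comparisons share the Control library with LPS/Control and are not independent of it.

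**Figure D3:**
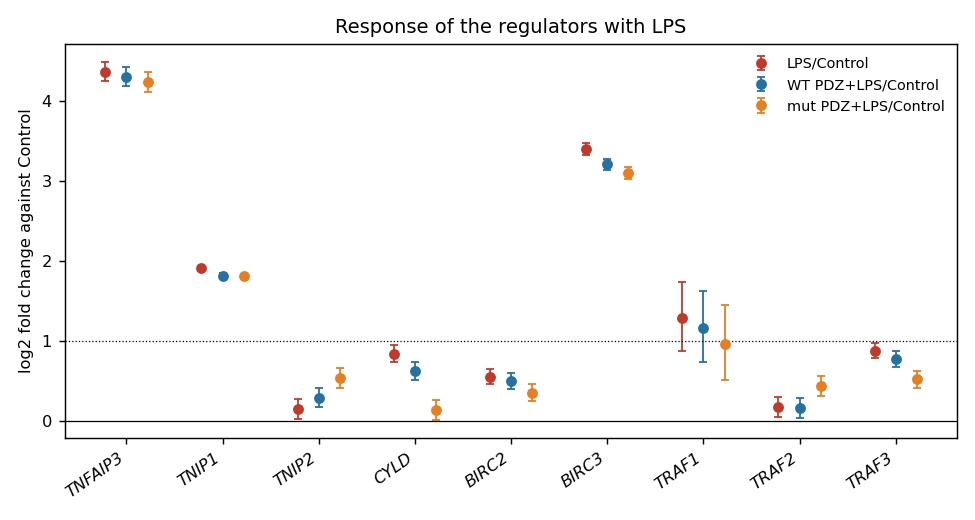
Log2 fold changes against Control of the 9 regulators that met the expression rule, for the 3 libraries with LPS, with exact 95% counting intervals; the dotted line is at 2-fold. TNFAIP3, BIRC3 and TNIP1 lie above the line in all 3 comparisons, and TRAF1 falls just below it in mut PDZ+LPS.

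Whether a peptide changed the LPS state was asked by comparison with the LPS library. In WT PDZ+LPS/LPS, 0 of the 9 members were called in either direction, against 1.37% of 13236 genes. Of the 9 log2 fold changes, 8 were below 0 and 1 above, with a median of -0.089. Over 13072 genes, 6176 were below 0 and 6893 above, with a median of 0.0075. The interval was clear of 0 for 5 members below and 1 above. Of the 32 other pathway genes described below, 5 had such an interval below 0 and 6 above. Intervals were not counted over all genes. CYLD had the lowest value, -0.22 (-0.32 to -0.12), followed by BIRC3 with -0.19 (-0.22 to -0.16). TRAF3, TNIP1 and TNFAIP3 were at -0.0998 (-0.19 to -0.012), -0.089 (-0.11 to -0.069) and -0.059 (-0.099 to -0.020). BIRC2 (-0.057), TRAF1 (-0.13) and TRAF2 (-0.0074) had intervals that included 0, and TNIP2 was at 0.15 (0.025 to 0.27).

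Differences of this size are clear of counting error for the abundant genes but have no estimate of the spread between cultures. BIRC3 fell short of BIRC2 in WT PDZ+LPS/LPS by a log2 difference of -0.13 (-0.23 to -0.037), and TNIP1 of TNIP2 by -0.24 (-0.36 to -0.11). TNFAIP3 exceeded CYLD by 0.16 (0.054 to 0.26). The directions of all 9 members in WT PDZ+LPS/LPS were the same under TMM, total-count and upper-quartile scaling and once corrected for length and GC trends.

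In mut PDZ+LPS/LPS, 0 of the 9 members were called, against 3.95% of 13378 genes. CYLD was at -0.70 (-0.82 to -0.59), TRAF3 at -0.36 (-0.46 to -0.26), TRAF1 at -0.32 (-0.71 to 0.056) and BIRC3 at -0.30 (-0.34 to -0.27). BIRC2 was at -0.20 (-0.30 to -0.10), TNFAIP3 at -0.13 (-0.17 to -0.086) and TNIP1 at -0.098 (-0.12 to -0.076). TNIP2, at 0.39 (0.27 to 0.51), and TRAF2, at 0.27 (0.14 to 0.39), lay on the other side.

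These values followed transcript length, as did those of the whole library. Over 11751 genes, which are not independent replicates, the fold change in mut PDZ+LPS/LPS had a Spearman's rho of -0.603 with the length of the longest coding transcript, whereas WT PDZ+LPS/LPS had one of 0.0736. When these genes were ordered by length into deciles, the shortest decile (median 1145 nt) had a median log2 value of 0.40 in mut PDZ+LPS/LPS and the longest (median 9576 nt) one of -0.48. Among the 9 members rho was -0.983: TNIP2 (2006 nt) and TRAF2 (2264 nt), the shortest, were the only members above 0, and CYLD (8503 nt), the longest, was the lowest. In WT PDZ+LPS/LPS rho among the same 9 was -0.883 although the library as a whole had almost no such trend, and it was -0.883 after the correction as well. These 9 points share both libraries, and their order rests on small differences.

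**Figure D4:**
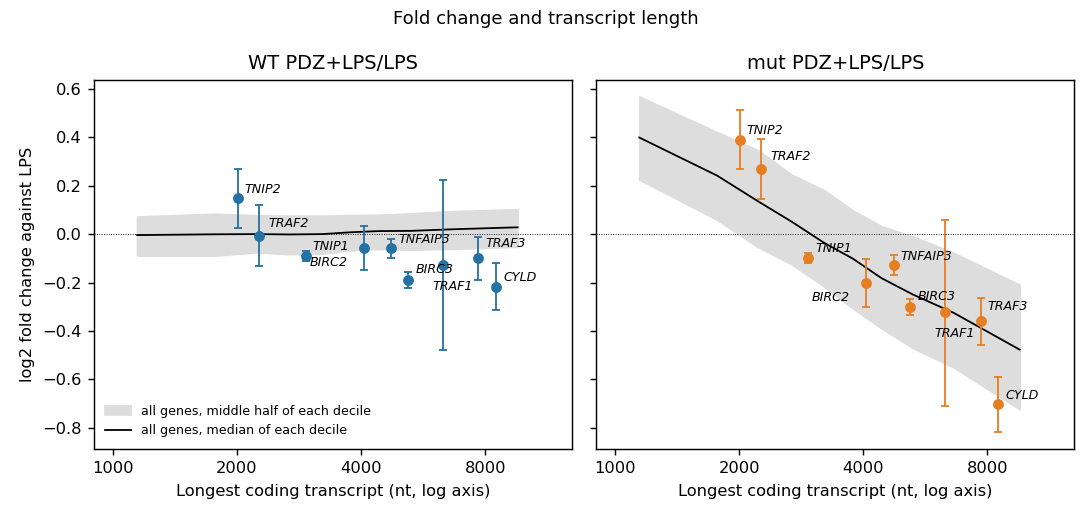
Log2 fold changes against LPS (vertical axis) by the length of the longest coding transcript (nt, log axis) for the 9 regulators, with exact 95% counting intervals; the line and shading are the median and the quartile range of each length decile of 11751 genes. In mut PDZ+LPS the median of all genes falls from 0.40 to -0.48 with length and the regulators lie along it, while in WT PDZ+LPS the median stays near 0.

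After the trend with length and GC content was removed, the 9 members in mut PDZ+LPS/LPS ran from -0.22 to 0.13 with a median of -0.018, and rho with length among them was -0.217. TNFAIP3 (0.13), TRAF3 (0.024) and TRAF2 (-0.021) changed sign. CYLD was at -0.22 and TNIP1 at -0.22, the lowest of the 9, and TNIP2 was at 0.034. BIRC3 was at -0.071, BIRC2 at -0.018 and TRAF1 at -0.014. For comparison, the corrected values in WT PDZ+LPS/LPS were -0.26 for CYLD, -0.23 for BIRC3, -0.082 for TNIP1 and -0.060 for TNFAIP3.

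**Figure D5:**
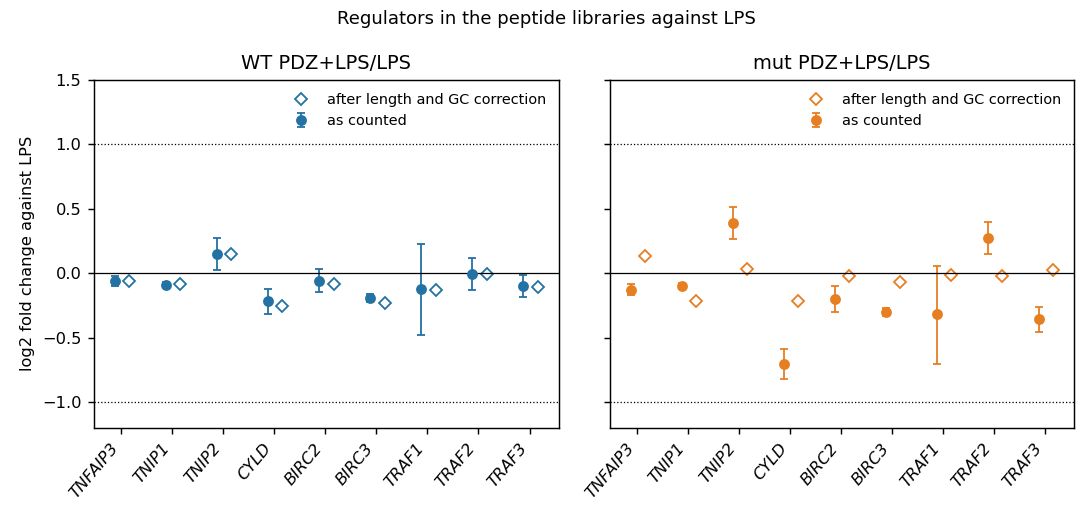
For the 9 regulators, log2 fold changes of each peptide library against LPS, as counted (filled circles with exact 95% counting intervals) and corrected for length and GC trends (open diamonds); the dotted lines are at 2-fold. All points lie inside the 2-fold lines, and the correction moves the mut PDZ+LPS points, such as CYLD from -0.70 to -0.22, more than the WT PDZ+LPS points.

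The peptides differ by the glycine pair, and their libraries were compared directly at the same times of peptide and LPS. In mut PDZ+LPS/WT PDZ+LPS, 0 of the 9 members were called, against 4.26% of 13372 genes. TNFAIP3 was at -0.068 (-0.11 to -0.026), BIRC3 at -0.11 (-0.15 to -0.074) and TNIP1 at -0.0086 (-0.031 to 0.014). The direction of these small values depended on the processing: TNFAIP3 and BIRC3 were at 0.19 and 0.15 after the length and GC correction, and upper-quartile scaling placed TNFAIP3 at 0.012 and TNIP1 at 0.072. CYLD was at -0.49 (-0.60 to -0.37) as counted and at 0.041 after the correction.

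The other members in mut PDZ+LPS/WT PDZ+LPS behaved alike in this respect. TRAF3 was at -0.26 (-0.36 to -0.16) as counted and 0.13 corrected, TRAF2 at 0.28 (0.15 to 0.40) and -0.023, and TNIP2 at 0.24 (0.12 to 0.36) and -0.12. BIRC2 was at -0.14 (-0.24 to -0.043) and 0.061, and TRAF1 at -0.19 (-0.59 to 0.20) and 0.11. TNIP1 had the same sign as counted and corrected (-0.14) but the opposite one under total-count (0.025) and upper-quartile scaling. None of the 9 differed between the peptide libraries by 2-fold, and each of them changed direction under at least 1 of these settings.

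A further 32 genes of the same pathway gave the context: partners of A20, deubiquitinases, the linear ubiquitin ligase, other TRAF proteins, XIAP and its antagonist, ubiquitin-dependent kinases and ubiquitin enzymes. All 32 met the expression rule. In LPS/Control 3 were called higher and 0 lower, with a median of 0.081, and 3.46% of 13277 genes were called higher. TIFA, an adaptor that binds TRAF proteins, went from 602 to 1539 counts (log2 fold change 1.46). PELI1, a ubiquitin ligase of toll-like receptor signaling, went from 391 to 939 (1.37), and RIPK2, the kinase downstream of NOD receptors, from 440 to 996 (1.29).

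WT PDZ+LPS/Control had 2 of the 32 called higher, against 3.28% of 13284 genes. These were TIFA (1.24) and PELI1 (1.30), while RIPK2 was at 0.95. In mut PDZ+LPS/Control all 3 were called, against 5.13% of 13434 genes called higher. TIFA was at 1.32, RIPK2 at 1.17 and PELI1 at 1.07, but under total-count scaling PELI1 was not called and 2 remained. None of the 32 was called between the LPS-treated libraries. Against LPS the median of the 32 was 0.032 with the WT peptide and -0.11 with the mut peptide, and it was -0.023 between the peptide libraries. After the length and GC correction these medians were 0.019, 0.029 and 0.075, so both negative ones changed sign. RIPK2 was at -0.34 (-0.48 to -0.20) in WT PDZ+LPS/LPS and at -0.12 (-0.25 to 0.023) in mut PDZ+LPS/LPS. The NF-kB consensus was in the promoter windows of 5 of the 29 of these genes that had one (17.2%).

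For each member called in LPS/Control, the 3 genes with the closest pattern were taken by the Euclidean distance over the 3 log2 fold changes against Control, among 13072 genes. TNFAIP3 was closest to CXCL6, a neutrophil-attracting chemokine (distance 0.349), LAMB3, a laminin chain of the basement membrane (0.357), and NFKBIZ, an atypical member of the inhibitor of NF-kB family (0.395). CXCL6 had 125 counts in Control and 2391 in LPS, and NFKBIZ had 268 and 4738. BIRC3 was closest to TLR2, a receptor of bacterial lipoproteins (0.214), TNFAIP8 (0.260) and the kinase MAP3K8 (0.264). TLR2 had 240 counts in Control and 2230 in LPS.

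The genes nearest to TNIP1 included ANKRD18A (distance 0.055) and NOCT (0.112). TRAF1 was closest to UGCG, which makes glucosylceramide (0.075), UGP2, which makes UDP-glucose (0.145), and CRISPLD2 (0.167). CRISPLD2 had only 13 to 33 counts, and UGCG went from 4271 counts in Control to 9413 in LPS. In Control, LAMB3 had 32 counts and ANKRD18A 52. These distances describe likeness of the 3 fold changes, not of the levels, and rest on 4 libraries. The fold changes were taken without the length and GC correction. That of mut PDZ+LPS/Control had a Spearman's rho of -0.451 with transcript length over 11751 genes.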

How the data were processed

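RNA libraries of BEAS-2B cells, made with a directional kit, were sequenced by the authors. Per the labels, submitters' processing notes name TopHat and hg19; the counting tool and its use of strand are not given in the sources used here. The authors deposited 1 file per library with a value per gene symbol, and the deposited values were treated as raw counts because they are integers and the library totals differ. The methods name FPKM and geometric normalization, and the counting intervals depend on this reading. Antisense genes overlap TNFAIP3 and CYLD, so their reads may not be separable.

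Counts were divided by DESeq2 (1.42.0, R 4.3.3) geometric size factors of 1.15 for Control, 1.06 for LPS alone, 0.990 with the WT peptide and 0.851 with the mut peptide, and a pseudocount of 1 was added before log2. Groups came from the treatment labels. Fold intervals were exact binomial (Clopper-Pearson, 95%), level intervals exact Poisson, and intervals of a difference between genes a normal approximation over 4 counts. A count of 0 was taken as up to 3 counts, for counting error only. The correction removed lowess trends (span 0.3) over length, then GC content, of the longest coding transcript in GENCODE 29, for 11751 of 13072 genes. Levels between genes are per kilobase of that transcript. Coordinates of the printed sequences are RefSeq's in GRCh38.p14; no coordinates of hg19 were used.

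The members, the list of 32 genes and the alternatives were chosen with earlier results of these data known. Named genes were the members, genes of the list of 32 called in LPS/Control or between the 3 LPS-treated libraries, and the 3 nearest patterns per called member; 1 of these is not reported here. Alternatives were scaling by upper quartile, by total count and by TMM (edgeR 4.0.16), 5 in place of 1 as pseudocount, no expression rule, 64 normalized counts, folds of 1.5 and 3, the correction, and median transcript length. The steps were tested on simulated data. Python 3.11.15, pandas 2.3.3, scipy 1.17.1 and statsmodels 0.14.6 were used.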

Additional observations from a re-analysis of the deposited data

How the results depend on the processing

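No paired analysis was possible because each condition had 1 library, and for the same reason no library could be left out. The members called against Control, 4 with LPS alone, 4 with the WT peptide and 3 with the mut peptide, stayed within 1.5 times those counts under the 9 alternatives tried. Without the expression rule, 1 member (TNIP3, from 6 and 2 counts) was called in WT PDZ+LPS/LPS and 1 (again TNIP3) between the peptide libraries, and at 1.5-fold 1 (CYLD) was called in mut PDZ+LPS/LPS. Of the 32 other pathway genes, a threshold of 1.5-fold gave 5 against Control for the WT peptide, all higher. Over all genes at most 2601 of 13284 were called there at that threshold. The mut peptide gave 7 against Control, 4 higher and 3 lower, beside 3175 of 13434 genes called in either direction. Against LPS it gave 3, TRADD higher and ITCH and OTULIN lower, named after their values were seen. Between the peptide libraries 3 were lower (ITCH, OTULIN and TRAF6, likewise). At 1.5-fold, 2367 of 13378 genes were called in mut PDZ+LPS/LPS and 2556 of 13372 between the peptide libraries. After the length and GC correction TRADD was at 0.13, ITCH at -0.26 and OTULIN at -0.22 in mut PDZ+LPS/LPS. Between the peptide libraries ITCH was at -0.31, OTULIN at -0.30 and TRAF6 at -0.53. All of these fell short of 1.5-fold. The 3 genes lower in mut PDZ+LPS/Control were at -0.61 (TRAF6), -0.18 (OTUD7B) and -0.18 (OTULIN) after the correction, and only TRAF6 kept 1.5-fold. A 3-fold threshold gave 0 in each comparison with Control. Over all genes the calls ranged from 288 to 2145 around 647 in LPS/Control, from 278 to 2601 around 625 in WT PDZ+LPS/Control, from 399 to 3175 around 1087 in mut PDZ+LPS/Control, from 11 to 2106 around 181 in WT PDZ+LPS/LPS, from 122 to 2435 around 528 in mut PDZ+LPS/LPS, and from 139 to 3057 around 570 between the peptide libraries; these follow from thresholds that are looser or stricter. Total-count scaling placed the median of all genes against Control at -0.13 with LPS alone, -0.12 with the WT peptide and -0.12 with the mut peptide, and the 9 members stayed above 0 in these comparisons, the nearest to it being TNIP2 at 0.012 in LPS/Control. Depth limited TNIP3 and TRAF1, with at most 6 and 150 counts.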
